A study of Rattus norvegicus with 9 samples.

Results

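The genes described here are the receptors, ligands and first target genes of the Notch pathway, a list of 10: the receptors Notch1, Notch2, Notch3 and Notch4, the ligands Jag1, Jag2, Dll1 and Dll4, and the target genes Hes1 and Hey1. Of these, 9 were among the 17337 genes of the count table and Jag2 was not analysed here. The tested set holds 7 of them, since Dll1 and Dll4 did not pass the filter on low counts. RNA-seq had been done on cultured heart fibroblasts, which make and remodel the cardiac matrix, taken from rats of the Sprague Dawley strain and grown at passage 0 until the flasks were full. The fetal group came from embryonic day 18, the neonatal group from postnatal day 1 and the adult group from rats of 7 weeks, with 3 libraries in each. No gene was altered and no agent separated the groups, and all 9 cultures shared a medium with serum and ascorbic acid. The labels give no sort of the cells, and they do not say whether libraries of one age came from separate animals or were pooled, so p-values measure the spread between these libraries, which may be technical. The design asks how expression in these cultures differed with the age of the donor animals.

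Notch receptors are membrane proteins that read out contact between neighbouring cells. A ligand of the Jagged or Delta-like family on one cell binds a receptor on the next, which is then cleaved by an ADAM protease and by gamma-secretase. The freed intracellular domain joins the DNA-binding protein Rbpj and Mastermind-like coactivators in the nucleus, where genes of the Hes and Hey families of transcriptional repressors are switched on. In the heart the pathway is known for its part in valve and trabecula formation and in the growth of vessels, and Notch3 with Jag1 is best known from the mural cells of vessels, the smooth muscle cells and pericytes.

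The libraries held 13392825 to 22850491 assigned counts, with the 3 adult libraries (13392825 to 13810825) below every fetal and neonatal library (16241217 to 22850491). Abundances are given as counts per 1000000 counts after TMM scaling (CPM), as mean ± SD over n = 3 libraries, and levels of different genes are compared only per length of exon, as RPKM. Fetal replicate 3 stood apart from the other fetal libraries. Its summed level of 8 epithelial marker genes was 405 CPM, against 23.8 and 26.7 CPM in the other fetal libraries and at most 6.55 CPM in any neonatal or adult library. Its sums for 11 fibroblast markers (27588 CPM) and 10 mural markers (1418 CPM) were below those of fetal replicates 1 and 2 (51002 to 54122 and 2613 to 2656 CPM). Most single markers were lower there too, such as Col1a1 (14794 against 32977 and 30302 CPM), which dominates the fibroblast sum. Others were higher in it: Pdgfra (151 against 106 and 109 CPM), Postn, Vim and, of the mural list, Abcc9 (18.6 against 11.7 and 14.8 CPM). The culture label was checked on fibroblast markers: Col1a1 averaged 26024, 37781 and 14959 CPM and Pdgfra 122, 182 and 432 CPM in fetal, neonatal and adult libraries, whereas Col1a2 was listed at averages of only 0.348 to 0.722 CPM. Where leaving it out changed a call or moved a value of one of the 10 genes by over 1.5 times, both values are given. In these bulk samples fewer cells of a type and less RNA per cell cannot be told apart.

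Notch3 and its ligand Jag1 showed the same order of ages, highest in the neonatal cultures. Hes1 was highest in the adult cultures, Hey1 was nearly undetected there, and Notch2 differed by 0.20 or less on the log2 scale between any pair of ages. In edgeR's quasi-likelihood test, with adjusted p under 0.05 over the 11337 genes tested, any difference among the ages was called for 6 of the 7 genes, all but Notch1, beside 77.6% of all genes. Between adult and neonatal cultures 1 of the 7 rose and 3 fell, beside 63.5% of all genes called, 31.6% higher and 31.8% lower. Between adult and fetal cultures 1 rose and 2 fell, beside 70.5% of all genes, 34.9% higher and 35.5% lower. Between neonatal and fetal cultures 0 rose and 1 fell, beside 36.3% of all genes, 18.3% higher and 18% lower. The share of the 7 genes called was below that of all genes in each pair when all 9 libraries were fitted. For adult against neonatal the shares were close (57.1% beside 63.5%), and for neonatal against fetal the order turned without fetal replicate 3. Without fetal replicate 3 Dll4 passed the filter too, and 4 of 8 genes were called between neonatal and fetal cultures (40.6% of all genes), 5 between adult and fetal (74.8%), 5 between adult and neonatal (72.2%) and 6 among the ages (82.1%).

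Notch3, a receptor encoded on chromosome 7 (14138495 to 14189688, rn6; exons of 7313 bases), lay at 277, 254 and 38.9 CPM in fetal replicates 1, 2 and 3. The neonatal libraries were at 519.9, 574 and 558 CPM and the adult libraries at 67.5, 105.4 and 105.5 CPM. Every neonatal library was above every fetal and every adult one, while fetal and adult libraries overlapped only through fetal replicate 3, the lowest of all 9. From neonatal (551 ± 27.9 CPM) to adult (92.8 ± 21.9 CPM) Notch3 fell by 2.57 on the log2 scale, 5.93-fold (SE 0.593, edgeR adjusted p = 0.00464). Neonatal against fetal libraries (190 ± 131 CPM) differed by 1.54 (SE 0.570, edgeR adjusted p = 0.0641) and adult against fetal by -1.03 (SE 0.568, edgeR adjusted p = 0.133), which did not pass. Without fetal replicate 3 both passed: Notch3 rose by 1.05 from fetal to neonatal (2.08-fold, SE 0.189, edgeR adjusted p = 0.00471) and was lower by a log2 difference of -1.52 in adult than in fetal cultures (SE 0.184, edgeR adjusted p = 0.000242). Over all alternatives the adjusted p (from edgeR, or from DESeq2 where that was the alternative) ran from 0.00471 to 0.139 for neonatal against fetal. For adult against fetal it ran from 0.000242 to 0.356. For adult against neonatal it ran from 1.18e-05 to 0.0198, so that the adult to neonatal call passed in each.

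Notch2, a broadly expressed receptor gene on chromosome 2 (200187184 to 200320402, rn6; exons of 10722 bases), had the narrowest spread. Its fetal libraries held 218, 222 and 210.5 CPM, its neonatal libraries 197, 204 and 189 CPM and its adult libraries 191, 192 and 182 CPM. All fetal libraries, replicate 3 included, lay above all neonatal and adult ones. Notch2 fell from fetal to adult by 0.20 on the log2 scale (1.15-fold, SE 0.0585, edgeR adjusted p = 0.0112), a call kept without fetal replicate 3 at -0.23 (edgeR adjusted p = 0.00236). The neonatal to fetal difference of -0.14 did not pass (SE 0.0584, edgeR adjusted p = 0.0845), but passed without fetal replicate 3 (-0.16, edgeR adjusted p = 0.0310). Adult and neonatal libraries overlapped, with a difference of -0.06 (SE 0.0585, edgeR adjusted p = 0.384).

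Notch1, the receptor gene on chromosome 3 (3905562 to 3951015, rn6; exons of 9407 bases), was measured at 29.3, 26.7 and 14.9 CPM in fetal, 32.0, 33.9 and 33.8 CPM in neonatal and 28.3, 34.9 and 32.7 CPM in adult libraries. The lowest library was again fetal replicate 3. Differences of 0.49 for neonatal against fetal (edgeR adjusted p = 0.0975), 0.44 for adult against fetal (edgeR adjusted p = 0.0938) and -0.06 for adult against neonatal (edgeR adjusted p = 0.832) did not pass. The first 2 passed when fetal replicate 1 was left out (0.67, edgeR adjusted p = 0.0444, and 0.61, edgeR adjusted p = 0.0359). Without fetal replicate 3 they shrank and did not pass (0.25, edgeR adjusted p = 0.0576, and 0.19, edgeR adjusted p = 0.0961).

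Notch4 was the scarcest receptor. This gene, best known from endothelium, lies on chromosome 20 (4329794 to 4353785, rn6; exons of 6483 bases) and reached 5.88, 4.36 and 3.56 CPM in fetal, 1.54, 1.49 and 2.14 CPM in neonatal and 4.90, 3.25 and 1.42 CPM in adult libraries, on 19 to 109 counts each. Fetal and neonatal libraries did not overlap, and adult replicates spanned the neonatal range and much of the fetal one. Notch4 fell by 1.42 on the log2 scale from fetal to neonatal cultures (SE 0.404, edgeR adjusted p = 0.0232). That call was lost without fetal replicate 1 (0.0650), neonatal replicate 1 (0.0822) or neonatal replicate 2 (0.0868, all edgeR adjusted p). Adult against neonatal differed by 0.90 (SE 0.416, edgeR adjusted p = 0.0870), which passed without adult replicate 3 (1.25, edgeR adjusted p = 0.00967), and adult against fetal by -0.53 (SE 0.392, edgeR adjusted p = 0.251).

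**Figure D1:**
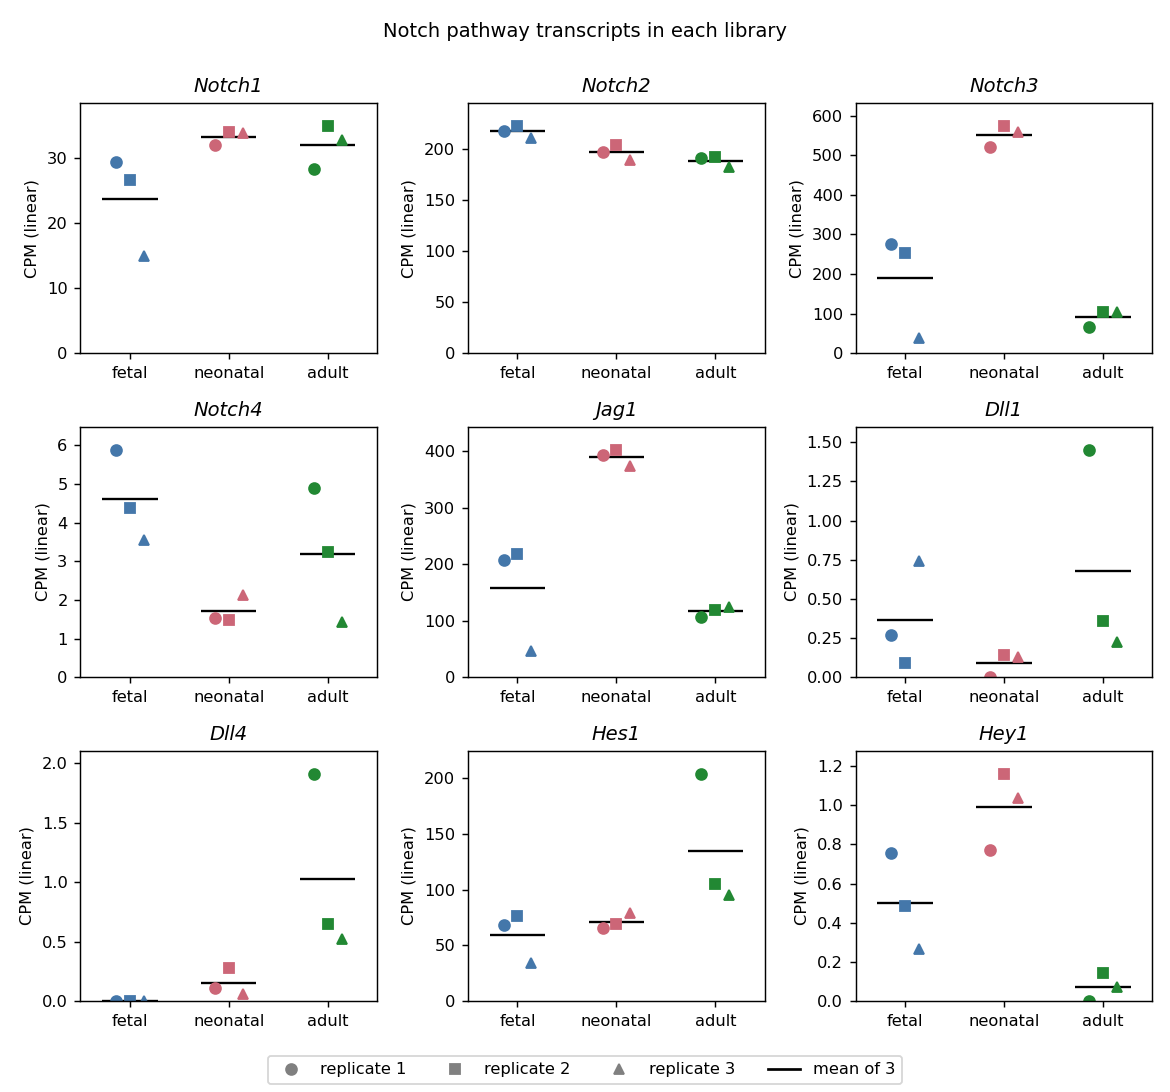
CPM of each of the 9 measured Notch genes in the fetal, neonatal and adult cultures, 1 panel per gene with its own axis, where points are libraries and bars the mean of 3. In Notch3 and Jag1 the neonatal points lie above all others (519.9 to 574 and 373 to 402 CPM), and 1 fetal point, replicate 3, lies far below its group (38.9 and 46.2 CPM).

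Per length of exon, the make-up of the receptor transcripts was led by Notch3 in neonatal cultures and by Notch2 in adult ones. Summed over the 4 receptor genes, the fetal libraries held 49.4 ± 19.4 RPKM, the neonatal 97.4 ± 4.17 RPKM and the adult 34.1 ± 2.97 RPKM. Notch3 made up 60.9%, 58.9% and 19.7% of that sum in fetal replicates 1, 2 and 3. Its share was 76.4% to 78.0% of neonatal and 29.9% to 41.1% of adult receptor RPKM. Notch2 made up 32.7%, 35.2% and 72.5% in those fetal replicates, against a neonatal share of 18.8% ± 0.872. In adult replicates 1, 2 and 3 Notch2 made up 57.9%, 49.0% and 48.4%, above the Notch3 share in each. Fetal replicate 3 thus had a receptor make-up below the adult range for Notch3, and the other fetal libraries lay between the adult and the neonatal ranges. The mean Notch1 share was 5.22%, 3.63% and 9.95%, and the mean Notch4 share 1.54%, 0.273% and 1.48%, in fetal, neonatal and adult libraries. For the Notch3 share, a two-sided exact permutation test of 3 against 3 libraries, which cannot go below 0.1, gave p = 0.1 for adult against neonatal (-40.4 percentage points; 0.15 after Benjamini-Hochberg adjustment over the 3 pairs of ages). The same exact test gave p = 0.1 (adjusted 0.15) for neonatal against fetal (30.8 points) and p = 0.6 for adult against fetal (-9.64 points). Without fetal replicate 3 these differences were 17.4 and -23.0 points, and adult and fetal libraries no longer overlapped.

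**Figure D2:**
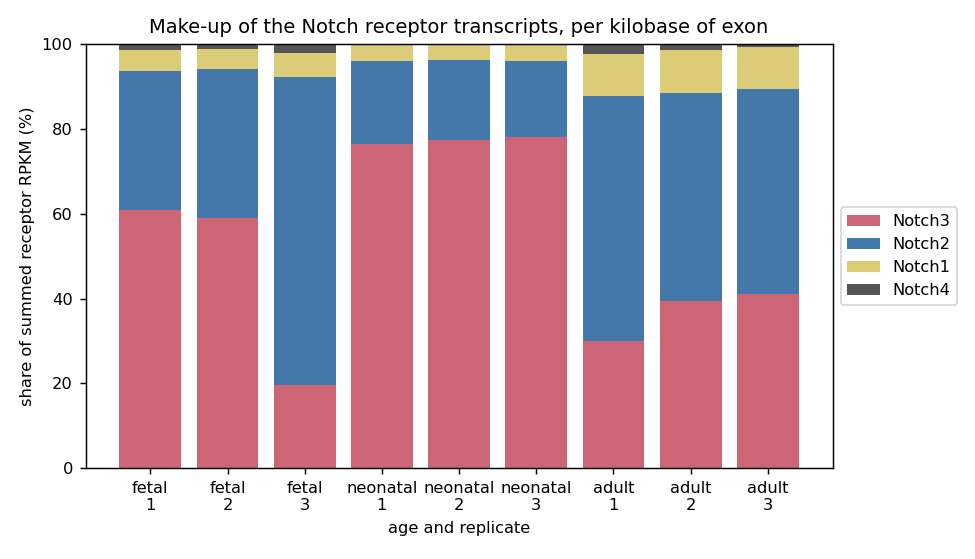
Share of each Notch receptor gene in the summed receptor RPKM, in percent, as 1 stacked bar for each of the 9 libraries. Notch3 takes 76.4% to 78.0% of the neonatal bars and 29.9% to 41.1% of the adult bars, and fetal replicate 3, at 19.7%, differs from the other fetal bars.

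Jag1, the ligand gene on chromosome 3 (130079361 to 130114781, rn6; exons of 5576 bases), held 207, 219 and 46.2 CPM in fetal, 393, 402 and 373 CPM in neonatal and 107, 119.7 and 124 CPM in adult libraries. As for Notch3, every neonatal library was above all others and fetal replicate 3 was the lowest of the 9. Jag1 fell by 1.74 on the log2 scale, 3.33-fold, from neonatal to adult cultures (389.5 ± 15 to 117 ± 8.80 CPM, SE 0.461, edgeR adjusted p = 0.00956). The neonatal to fetal difference of 1.31 was just outside the threshold (SE 0.454, edgeR adjusted p = 0.0516). Its adjusted p, from edgeR or DESeq2, ranged from 3.59e-06 to 0.119 over the alternatives tried. Without fetal replicate 3 the neonatal to fetal difference was 0.87 (SE 0.0691, edgeR adjusted p = 3.59e-06). The adult to fetal difference then went from -0.43 (SE 0.451, edgeR adjusted p = 0.414) to -0.87 (SE 0.0675, edgeR adjusted p = 4.80e-07). Per length of exon Jag1 averaged 28.2, 69.9 and 21.0 RPKM in fetal, neonatal and adult cultures, beside 26.0, 75.3 and 12.7 RPKM for Notch3.

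The Delta-like ligand genes were near the limit of detection. Dll4, the ligand of sprouting endothelium, on chromosome 3 (111135019 to 111144835, rn6; exons of 3409 bases), had no count in any fetal library, 2, 6 and 1 counts in the neonatal and 25, 9 and 7 counts in the adult libraries. The 3 adult libraries, at 1.91, 0.650 and 0.524 CPM, lay above all others. Against a floor of 3 counts per fetal library, Dll4 was at least 6.81-fold higher in adult cultures, and with no filter on low counts edgeR called this difference (adjusted p = 0.00124) and that from neonatal cultures (2.61 on the log2 scale, adjusted p = 0.0241). Dll1, on chromosome 1 (57318621 to 57326729, rn6; exons of 3114 bases), had 5, 2 and 14 counts in fetal, 0, 3 and 2 in neonatal and 19, 5 and 3 in adult libraries. Its adult mean was at least 4.09-fold above the neonatal floor, a difference that did not pass without the filter (edgeR adjusted p = 0.0558). Without adult replicate 1 the bounds were 3.88-fold for Dll4 and 1.76-fold for Dll1. Fold bounds of this kind cover counting error only. In both ligands adult replicate 1 had the most counts. Of the 13 endothelial markers 10 were tested, and 5 of them were higher and 3 lower in adult than in neonatal cultures. Of all genes 63.5% were called in this pair, 31.6% higher and 31.8% lower. Pecam1 averaged 0.635, 0.776 and 7.16 CPM, Cdh5 0.255, 1.58 and 4.23 CPM and Cldn5 0, 0.136 and 0.375 CPM in fetal, neonatal and adult libraries. Tie1 averaged 0.421, 1.80 and 70.3 CPM. Flt1 ran the other way, at 197, 109 and 74.7 CPM, and Kdr averaged 2.58, 5.55 and 0.900 CPM. The part of endothelial RNA in the Dll4 values was not tested.

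Hes1, a repressor gene switched on by Notch in many tissues, lies on chromosome 11 (74312837 to 74315249, rn6; exons of 1414 bases). It held 68.5, 76.2 and 34.0 CPM in fetal, 65.5, 68.8 and 78.7 CPM in neonatal and 204, 105 and 95.4 CPM in adult libraries. Each adult library was above every other, adult replicate 1 by the widest margin, and fetal replicate 3 was the lowest. Hes1 rose by 1.18 on the log2 scale from fetal to adult cultures (59.6 ± 22.5 to 135 ± 60.2 CPM, SE 0.348, edgeR adjusted p = 0.0140) and by 0.92 from neonatal (71.0 ± 6.84 CPM) to adult (SE 0.346, edgeR adjusted p = 0.0427). Leaving out fetal replicate 3 ended the call against fetal cultures (0.89, edgeR adjusted p = 0.0625). The call against neonatal cultures ended when adult replicate 1 (0.50, edgeR adjusted p = 0.173), fetal replicate 1 (0.0573) or neonatal replicate 1, 2 or 3 (0.115, 0.107 and 0.0767) was left out, and with no filter on low counts (0.0774). Fetal and neonatal libraries overlapped, with a difference of 0.25 (SE 0.346, edgeR adjusted p = 0.595).

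Hey1, the other target, on chromosome 2 (95320283 to 95322701, rn6; exons of 885 bases), ran against Hes1 in the adult cultures. It had 14, 11 and 5 counts in fetal, 14, 25 and 16 in neonatal and 0, 2 and 1 in adult libraries, or 0.756, 0.485 and 0.266 CPM, 0.770, 1.16 and 1.04 CPM, and 0, 0.144 and 0.0749 CPM. All neonatal libraries lay above all fetal ones by CPM, and all fetal above all adult ones. The first order rests on the scaling: with library size alone neonatal replicate 1 stood at 0.734 CPM and fetal replicate 1 at 0.773 CPM. With all adult libraries at or below 3 counts, Hey1 was at least 4.42-fold lower in adult than in neonatal cultures (edgeR adjusted p = 0.00151) and at least 2.25-fold lower than in fetal cultures (edgeR adjusted p = 0.0110). With 1 library left out the lowest bounds were 4.04-fold (without neonatal replicate 2) and 1.68-fold (without fetal replicate 1). Neonatal against fetal differed by 0.98 (SE 0.473, edgeR adjusted p = 0.134). Per length of exon the targets were far apart in level, with means of 42.1, 50.2 and 95.3 RPKM for Hes1 and 0.567, 1.12 and 0.0826 RPKM for Hey1 in fetal, neonatal and adult cultures.

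**Figure D3:**
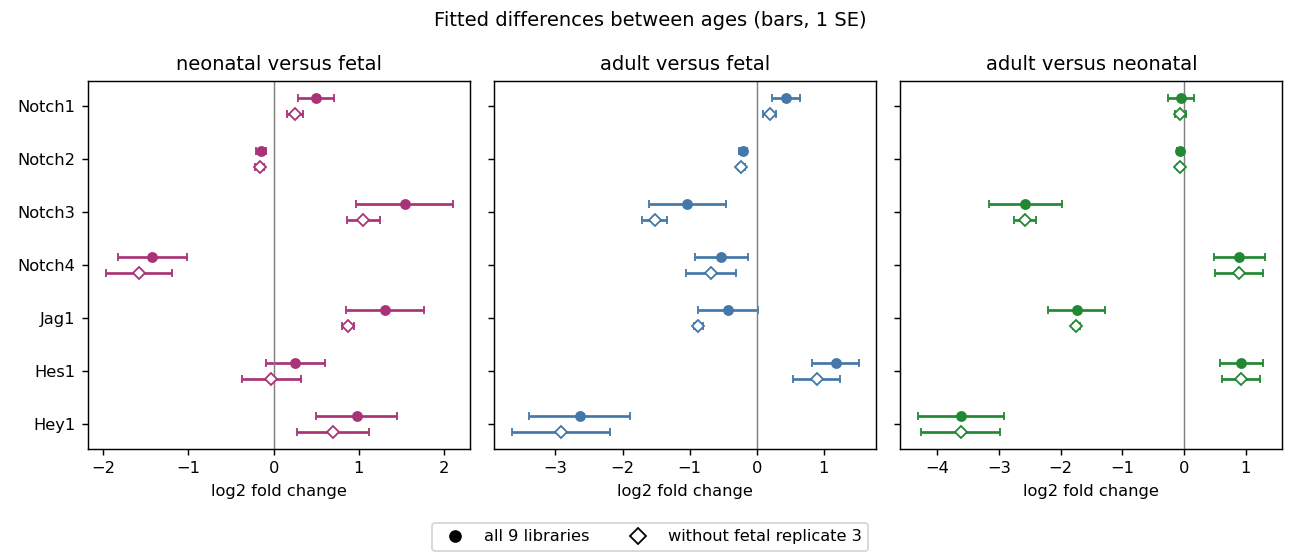
Fitted log2 fold change of the 7 tested Notch genes for each pair of ages, with bars of 1 SE on either side. Filled circles are the fit of all 9 libraries and open diamonds the fit without fetal replicate 3, whether called or not. With all 9 libraries Notch3 and Jag1 lie at -2.57 and -1.74 for adult against neonatal and Hes1 on the other side at 0.92. The adult values of Hey1 come from at most 2 counts per library and are no bound.

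Hes1 is known as a direct target of Rbpj, and its 250 bases before the start (RefSeq, build GRCr8, chr11:84213046-84213295, minus strand) are shown beside those of Notch3 (chr7:11834586-11834835, minus strand) and Jag1 (chr3:144894884-144895133, minus strand), the 2 genes whose levels moved most alike. Capitals mark TGGGAA, the core of the motif bound by Rbpj, searched on both strands.
Hes1: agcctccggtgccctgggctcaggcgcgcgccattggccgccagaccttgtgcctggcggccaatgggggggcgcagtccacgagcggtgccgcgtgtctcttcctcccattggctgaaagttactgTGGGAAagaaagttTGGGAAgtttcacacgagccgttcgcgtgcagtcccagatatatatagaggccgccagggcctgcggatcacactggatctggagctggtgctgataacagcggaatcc
Notch3: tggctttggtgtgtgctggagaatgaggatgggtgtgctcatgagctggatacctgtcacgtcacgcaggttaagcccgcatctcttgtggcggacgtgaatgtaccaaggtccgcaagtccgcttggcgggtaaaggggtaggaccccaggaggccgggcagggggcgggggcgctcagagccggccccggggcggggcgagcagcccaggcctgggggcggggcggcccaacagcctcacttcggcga
Jag1: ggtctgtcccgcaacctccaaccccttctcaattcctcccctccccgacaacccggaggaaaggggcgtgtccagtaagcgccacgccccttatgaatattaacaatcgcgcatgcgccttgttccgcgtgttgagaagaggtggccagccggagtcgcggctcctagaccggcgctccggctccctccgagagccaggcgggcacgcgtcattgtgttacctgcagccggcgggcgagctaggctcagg
The Hes1 window held 2 matches, both on the sense strand, at 123 to 118 and 109 to 104 bases before the start, the first of them within the longer word GTGGGAA. Of 33469 rat promoter windows of this length, 22.1% held TGGGAA at least once, 2.71% held 2 or more matches and 5.27% held GTGGGAA. The windows of Notch4 and Dll1 also held 2 matches each, and those of Notch1, Notch2, Notch3 and Jag1 none. In Dll1, as in Hes1, 1 match lay within GTGGGAA, and in Notch4 none did. A match is a description of the letters, not of a bound site, and its part in the levels of these genes was not tested.

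Of the 7 tested genes, Notch3, Jag1 and Hey1 had every neonatal library above every fetal and every adult library, beside 9.64% of all genes tested. With library size alone this held for Notch3 and Jag1 but not for Hey1, beside 5.57% of all genes. Libraries of neonatal and fetal cultures did not overlap for 6 of the 7 genes (57.4% of all genes), those of adult and fetal cultures for 3 (71.8%) and those of adult and neonatal cultures for 4 (76.1%). Across the 9 libraries, log2 CPM of Notch3 and Jag1 correlated at r = 0.985, and at 0.989 over the 8 libraries without fetal replicate 3. Notch3 and Hes1 correlated at r = -0.0890 over 9 libraries and at -0.831 over those 8. These points share their ages and their libraries, so the values are descriptions.

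Among all tested genes outside the list, the pattern most like that of Notch3 over the 9 libraries was that of Vps13b (r = 0.993), for Jag1 it was Loxl3 (0.991) and for Hey1 Sept5 (0.986). The closest to Notch2 was Foxk1 (0.966) and the closest to Notch4 was Minpp1 (0.943). For Notch3 and Jag1 the next in order was the same gene, the pericyte gene Rgs5 (0.992 and 0.990), which was singled out after its values were seen. Rgs5 ran at 4.37, 3.75 and 0.425 CPM in fetal, 7.25 to 8.69 CPM in neonatal and 1.07 to 1.88 CPM in adult libraries, with the same low value in fetal replicate 3. The closest to Hes1 was the immediate-early transcription factor gene Egr1 (r = 0.983), at 165, 173 and 54.9 CPM in fetal, 170.2 to 174 CPM in neonatal and 594, 295 and 301 CPM in adult libraries. Adult replicate 1 was thus the highest library for Hes1 and for Egr1 alike.

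The summed markers of mural cells, the cell type in which Notch3 is best known, had the same order of ages as Notch3, though single markers differed. The sum of its 10 genes was 2613, 2656 and 1418 CPM in fetal, 4012 to 4089 CPM in neonatal and 1503 to 1824 CPM in adult libraries. From neonatal to adult, 6 of the 10 fell and 1 rose in edgeR's test, beside 63.5% of all genes called. From fetal to adult 4 fell and 3 rose, beside 70.5%. Mcam averaged 694, 1145 and 182 CPM in fetal, neonatal and adult libraries. Pdgfrb averaged 790, 2005 and 1307 CPM, higher in adult than in fetal libraries. Des was highest in fetal libraries, at 377, 229 and 14.6 CPM. The sum of 11 fibroblast markers was also highest in neonatal libraries, at 27588 to 54122, 72110 to 78359 and 27031 to 35592 CPM. Most of it was Col1a1 and Col3a1, and single markers differed. From neonatal to adult 3 of the 11 rose and 5 fell, beside 63.5% of all genes called. From fetal to adult 5 rose and 3 fell, beside 70.5%. Tcf21 averaged 11.8, 86.1 and 149 CPM and Dcn 50.1, 58.1 and 353 CPM, both highest in adult libraries. The part of mural cells or of culture make-up in the Notch3 and Jag1 values was not tested.

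**Figure D4:**
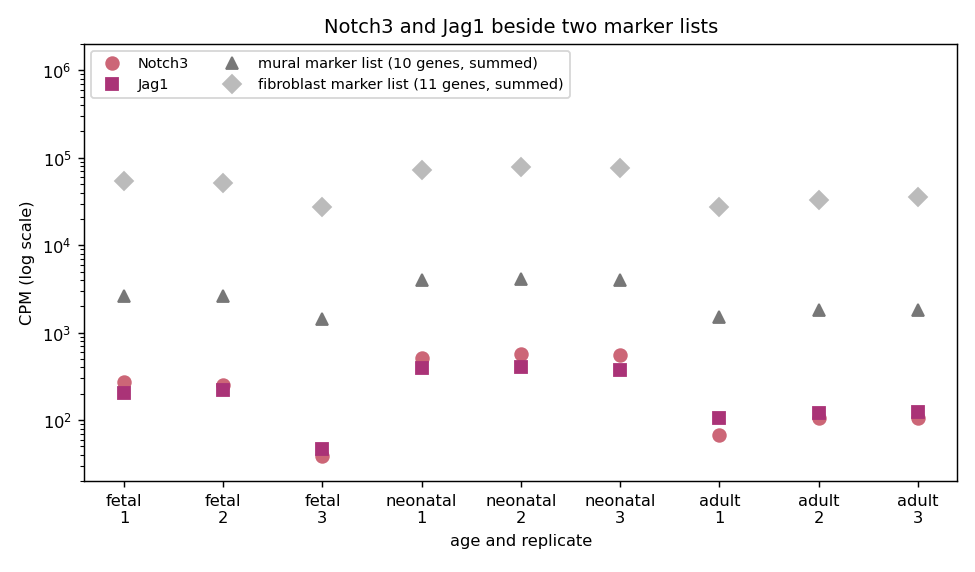
Notch3 and Jag1 beside the summed mural and fibroblast marker genes in each of the 9 libraries, in CPM on a log axis. All 4 are highest in the neonatal libraries, where the mural sum is 4012 to 4089 CPM, and in fetal replicate 3 all 4 lie below the other fetal libraries.

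Other marker lists moved differently. The 12 macrophage genes were all higher in adult than in neonatal and in fetal cultures in edgeR's test, where 31.6% and 34.9% of all genes were higher. Their sums were 4120 to 5695 CPM in adult, 162 to 178 CPM in neonatal and 14.8 to 68.8 CPM in fetal libraries. The 13 endothelial genes summed to 197 to 238, 148 to 149 and 185 to 205 CPM, and the 11 cardiomyocyte genes to 9133 to 13123, 6010 to 6632 and 304 to 319 CPM in fetal, neonatal and adult libraries. Most of the endothelial sum was Flt1 (means of 197, 109 and 74.7 CPM), with Tie1 (70.3 CPM) beside it in adult libraries. Nearly all of the adult cardiomyocyte sum was Tnnt2 (309 CPM on average), and each other gene of that list averaged at most 0.495 CPM there. Lymphocyte markers summed to at most 0.850 CPM in any library. The macrophage genes, Hes1 and Dll4 were all highest in adult cultures, but their order among the adult libraries differed. In adult replicates 1, 2 and 3 the macrophage sum was 4120, 4988 and 5695 CPM. Hes1 held 204, 105 and 95.4 CPM there, and Dll4 1.91, 0.650 and 0.524 CPM. Fetal replicate 3 had the highest fetal macrophage sum (68.8 CPM) and the lowest Hes1 value (34.0 CPM). The part of macrophage RNA in the Hes1 and Dll4 values was not tested.

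Against the other fetal libraries, fetal replicate 3 was low in Notch3 more than in nearly any other gene. The mean of fetal replicates 1 and 2 was 6.82-fold above it for Notch3, 4.61-fold for Jag1, 2.34-fold for Hey1, 2.13-fold for Hes1, 1.88-fold for Notch1, 1.44-fold for Notch4 and 1.05-fold for Notch2. All genes were ranked by the log2 ratio of these levels with 0.5 CPM added to each, which draws in the ratios of scarce genes. Only 10 of the 11337 tested genes then lay lower than Notch3 and 37 lower than Jag1, whereas 4971 lay lower than Notch2. The same library held the highest fetal Dll1 count.

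The wider pathway was followed in a list of 65 other genes, of which 56 had values and 48 were tested. From fetal to neonatal cultures 7 of the 48 rose and 11 fell (37.5%, beside 36.3% of all genes), from fetal to adult 18 rose and 18 fell (75%, beside 70.5%), and from neonatal to adult 16 rose and 18 fell (70.8%, beside 63.5%). Median log2 differences were -0.02, -0.09 and -0.05, against -0.01 for all genes in each pair. The list as a whole thus had no common direction, and its groups are given by role.

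Among other target genes, 4 of the 8 with values were tested. Heyl, a Hey family repressor gene, rose by 1.68 on the log2 scale from fetal to neonatal cultures (31.2 ± 13 to 99.8 ± 3.95 CPM, edgeR adjusted p = 0.0106), and its adult libraries lay at 30.6, 71.1 and 76.5 CPM. Its adult to fetal difference of 0.93 (edgeR adjusted p = 0.0553) passed without adult replicate 1 (1.24, edgeR adjusted p = 0.00817), and its adult to neonatal difference of -0.75 did not pass (edgeR adjusted p = 0.113). Hey2, the family member of ventricle and artery, was 16.0-fold lower in adult (1.78 ± 0.422 CPM) than in neonatal (28.6 ± 1.77 CPM) cultures (edgeR adjusted p = 0.00013) and by 3.36 from fetal (18.4 ± 10.0 CPM) to adult cultures (edgeR adjusted p = 0.000282). Its neonatal to fetal difference of 0.63 did not pass (edgeR adjusted p = 0.222). For Hey1, Hey2 and Heyl alike the highest 3 of the 9 libraries were the neonatal ones under TMM scaling, though with library size alone this held for Heyl only, and fetal replicate 3 was the lowest fetal library.

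Among other ligands only Dlk1, a membrane protein that lacks the receptor-activating domain of the Delta-like family, was tested. It held 53.1 CPM in fetal replicate 3 and averaged 13.2 CPM in the other fetal libraries, with neonatal libraries at 1.63 ± 0.0172 CPM and adult libraries at 0.199 ± 0.0871 CPM. Dlk1 fell by 4.01 from fetal to neonatal cultures (edgeR adjusted p = 0.00153) and by 7.01 from fetal to adult cultures (edgeR adjusted p = 7.23e-05). Without fetal replicate 3 the differences were -3.01 (edgeR adjusted p = 8.49e-07) and -6.01 (edgeR adjusted p = 9.89e-09). The adult to neonatal difference of -2.99 (edgeR adjusted p = 0.0309) was lost in each fit that left out 1 neonatal or adult library (0.0511 to 0.0941). Dlk1, like Dll1, had its highest fetal value in replicate 3, where Notch3, Jag1, Hes1 and the Hey genes had their lowest.

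In the nucleus, 2 of the 7 tested genes of the transcription complex rose and 2 fell from neonatal to adult cultures, where 31.6% of all genes rose and 31.8% fell. Rbpj, the DNA-binding partner of the cleaved receptor, rose by 0.83 from neonatal (66.8 ± 2.07 CPM) to adult (119 ± 18.5 CPM) cultures (edgeR adjusted p = 0.000256) and by 0.46 from fetal (86.6 ± 10.6 CPM) to adult cultures (edgeR adjusted p = 0.00683). The coactivator gene Maml1 went the other way, falling by 0.82 from neonatal (74.6 CPM) to adult (42.4 CPM) cultures (edgeR adjusted p = 7.37e-05). Of 11 corepressor genes 5 rose and 5 fell between the same ages (63.5% of all genes called). Tle1 and Tle3, both Groucho-type corepressors, moved apart: Tle1 fell by 2.41 from fetal (22.3 CPM) to adult (4.20 CPM) cultures (edgeR adjusted p = 9.27e-08), and Tle3 rose by 1.11 (65.4 to 141 CPM, edgeR adjusted p = 7.15e-07).

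Receptor processing genes moved in both directions between the ages. Adam17, one of the proteases that can cleave the receptor outside the membrane, rose by 1.28 from fetal (83.4 CPM) to adult (203 ± 38.9 CPM) cultures (edgeR adjusted p = 2.02e-05) and Aph1a, a gamma-secretase subunit gene, by 0.58 (edgeR adjusted p = 5.64e-05). Of 8 tested cleavage genes 4 rose and 2 fell between these ages (70.5% of all genes called). The 2 that fell were Adam10 (-0.69, edgeR adjusted p = 0.000592) and Furin (-0.43, edgeR adjusted p = 0.000249). Lfng, a glycosyltransferase that changes which ligands a receptor answers to, rose by 1.94 from neonatal (14.6 CPM) to adult (56.3 ± 2.21 CPM) cultures (edgeR adjusted p = 3.3e-06), while Poglut1, which adds O-glucose to the receptors, fell by 0.56 (edgeR adjusted p = 3.15e-05). All 5 glycosylation genes were called between these ages, 3 higher and 2 lower in adult cultures, beside 63.5% of all genes.

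On the side of the ligand-sending cell, 2 of 3 tested ubiquitin ligase genes fell from fetal to adult cultures and none rose, beside 70.5% of all genes called. Mib1, which ubiquitinates ligands for their uptake, fell by 1.47 from fetal (55.1 CPM) to adult (19.8 CPM) cultures (edgeR adjusted p = 2.53e-06) and Neurl1b by 1.51 (1.36 to 0.477 CPM, edgeR adjusted p = 0.00863). Neurl1b was higher still in neonatal cultures (2.77 CPM), a rise of 1.03 from the fetal ones (edgeR adjusted p = 0.0390). Of 9 receptor trafficking and turnover genes, 4 rose and 4 fell from fetal to adult cultures (70.5% of all genes called), among them Nedd4, a ubiquitin ligase, which fell by 1.20 (edgeR adjusted p = 1.17e-06), and the kinase gene Aak1, which fell by 1.48 (32.1 to 11.5 CPM, edgeR adjusted p = 1.8e-06). The smaller fetal to neonatal calls were less firm: those of Lfng, Neurl1b, Aph1a, Mib1, Aak1 and Rbpj were each lost in 3 to 7 of the 9 fits that left out 1 library.

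**Figure D5:**
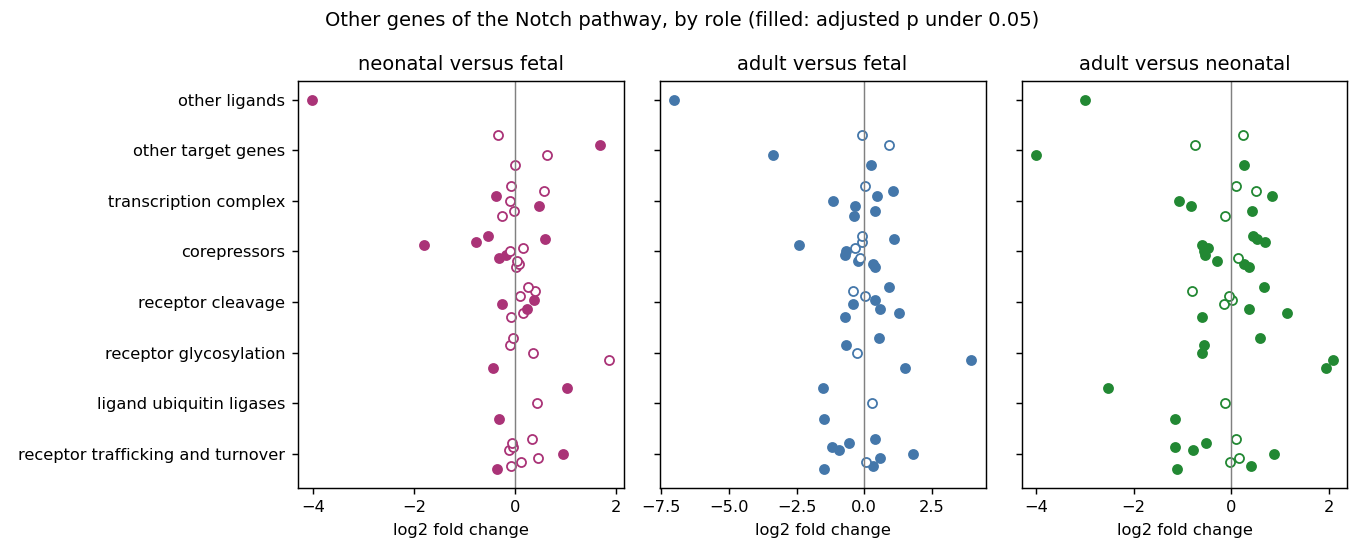
Fitted log2 fold changes of the 48 tested genes of the wider Notch list for each pair of ages, 1 row of points per role, filled where the adjusted p was under 0.05. Points lie on both sides of 0 in most roles, with Dlk1 at -7.01 the farthest for adult against fetal, and Mfng, whose fetal libraries are at or below 3 counts, is shown at a fitted value that is no bound.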

How the data were processed

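RNA of 9 cultures was measured by RNA-seq. The authors deposited raw counts per gene, made with featureCounts 1.6.3 and an rn6 annotation per the file headers, unstranded and without multi-mapped reads, which are that program's defaults. Exon lengths came from the same table. FastQC, Trimmomatic 0.39, STAR 2.5.2b, Subread 1.6.3 and DESeq2 are named in the submitters' processing notes. A deposited table of normalized signal, equal to each count divided by 1 factor per library (largest deviation 4.96e-05%), was used for that check and, through those factors, as an added scaling.

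Groups came from the labels. edgeR 4.0.16 (R 4.3.3; filterByExpr, TMM, robust quasi-likelihood fit of all 9 libraries on age) gave log2 fold changes, SE (from the fold change and F) and Benjamini-Hochberg adjusted p over 11337 genes. Log2 CPM used a prior count of 2. The script was tested on simulated data. No pair of libraries of one age agreed within counting error, so none was counted as 1 sample. Depth was 13392825 to 22850491 counts per library. A fold against an age with at most 3 counts in each library used that floor and is a lower bound. No other gene's exons overlap those of the 9 genes.

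All 10 genes are named. From each role of the wider list the 2 genes with the smallest any-difference adjusted p under 0.05 are named. Adam10 and Furin are named besides, as the cleavage genes that fell from fetal to adult cultures. One most alike gene is named for each called gene. The genes and lists were chosen with earlier results of these data known. Jag2 was not analysed here. Promoters came from RefSeq (GRCr8), with no entry for Dll4 and Hey1. The alternatives were DESeq2 1.42.0, its size factors in edgeR, library size alone, no filter, a replicate block and leaving out each library. Fold bounds and receptor shares without 1 library, and the order of libraries under other scalings, were added after seeing the data.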

Additional observations from a re-analysis of the deposited data

How the results depend on the processing

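Of 294 values recomputed for the 7 tested genes (21 differences, each under 14 alternatives), 267 kept their direction and side of the threshold, 11 lost the call, 13 gained it and 3 reversed. The reversed ones were small: Hes1 neonatal against fetal was -0.0275 without fetal replicate 3 (up to 0.471 over fits without 1 library), and Notch1 adult against neonatal was 0.00573 with library size alone and 0.0239 without adult replicate 1 (-0.126 to 0.0239 over fits without 1 library). In the wider list Adam17 neonatal against fetal was -0.0286 with library size alone. From fetal to neonatal, 1 gene of the list was called (4114 of all genes), but 4 with DESeq2 (4519 of all genes) and 3 with library size alone (4679 of all genes). Leaving out 1 library gave 0 to 4 there, 3 to 5 for adult against fetal and 3 to 7 for adult against neonatal, where Dll4 and Dll1 entered some fits that had other filters (both without adult replicate 3). It gave 7 to 19 of the wider list, and 2476 to 4679 of all genes, for neonatal against fetal. Of all genes it gave 7508 to 8616 for adult against fetal and 6210 to 8322 for adult against neonatal. Library size alone moved the median of all genes to -0.175 (neonatal against fetal) and -0.122 (adult against fetal), and the higher share of neonatal to fetal calls from 50.4% to 29.0%. Replicate numbers did not pair the libraries: same-numbered deviations correlated at -0.0649 to 0.0521, with 7 of 18 best matched to their own number. A replicate block gave 1, 3 and 3 of the 7 genes for neonatal against fetal, adult against fetal and adult against neonatal, and 3713, 7801 and 6985 of all genes, and Hes1 adult against neonatal had an edgeR adjusted p of 0.06. Depth limits Hey1, Dll1 and Dll4, at 25 counts or fewer in every library.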
